A study of Sus scrofa with 10 samples.

Results

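Cell junction and polarity genes were examined in pig morulae, the cleavage-stage embryos in which blastomeres flatten against one another and compact. The set was a list of 31 gene symbols covering adherens junctions, tight junctions, desmosomes, gap junctions, apical polarity and the adhesion protein EPCAM. Of the 31, 30 were found by name among 24358 listed genes, 25 of them reached a mean of 1 FPKM (a read level scaled to transcript length and library depth) over all libraries and entered the test, and 5 did not. RNA came from preimplantation embryos at the morula stage that developed from matured oocytes activated without sperm, so every embryo in both groups was a parthenote. Before activation, oocytes of 5 libraries received DDB1-siRNA (the DDB1_KD group), and those of the other 5 received a non-specific siRNA as negative control (the NC group). The labels give no breed, oocyte number, siRNA dose or hours of culture, and they do not state whether a group's libraries were separate cultures, so p-values measure the spread between these libraries, which may be technical.

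Adherens junctions join cells through E-cadherin, whose cytoplasmic tail binds catenins that connect it to actin, and they are the contacts on which compaction depends. Tight junctions seal the outer cells so that the trophectoderm can later pump fluid into the blastocyst cavity, and desmosomes anchor keratin filaments at cell borders. The PAR proteins with atypical protein kinase C, and the ezrin, radixin and moesin family, mark the outward-facing apical domain that sets outer cells apart from inner ones. Each library holds RNA of whole embryos, so fewer cells of a type and less RNA per cell cannot be told apart.

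The libraries held 32466912 to 50911295 estimated counts over 13522 to 14755 genes. DDB1, the siRNA target, stood at 0.920, 1.30, 1.28, 1.30 and 1.55 FPKM in DDB1_KD replicates 1 to 5 and at 3.59, 3.12, 2.53, 3.15 and 4.44 FPKM in NC replicates 1 to 5. The groups did not overlap, and the DDB1_KD mean was 38.3% of the NC mean, a log2 fold change of -1.39 (SE 0.28) with an adjusted p of 0.977 by edgeR's quasi-likelihood test and 0.0069 by DESeq2. The 5 embryo markers (POU5F1, SOX2, NANOG, GATA3 and TEAD4) summed to 81.5, 50.5, 58.3, 141 and 36.8 FPKM in DDB1_KD replicates 1 to 5 and to 60.1 to 140 FPKM in NC, so DDB1_KD replicates 2, 3 and 5 were the lowest. POU5F1 made up most of the sum, and SOX2 was at 0.286 to 2.39 FPKM. GATA3 was at 0 in DDB1_KD replicate 2, 0.360 FPKM in DDB1_KD replicate 1 and 1.62 to 14.0 FPKM in the others. NANOG went the other way in DDB1_KD replicate 2, where it was the highest of all at 11.2 FPKM. It was at 3.12 and 2.05 FPKM in DDB1_KD replicates 3 and 5 and at 0.354 to 6.62 FPKM in the remaining libraries. The low sums of DDB1_KD replicates 2, 3 and 5 thus followed POU5F1 and not every marker. Summed markers of cumulus cells, fibroblasts and blood reached at most 1.22, 3.14 and 11.7 FPKM, and the blood maximum, in NC replicate 1, was mostly the haemoglobin gene HBB at 9.97 FPKM. Maternal oocyte transcripts (ZP2, ZP3, ZP4, GDF9, BMP15, OOEP and FIGLA) summed to 8.57, 107, 71.9, 23.5 and 74.0 FPKM in DDB1_KD replicates 1 to 5 and to 27.0, 23.4, 50.5, 10.2 and 17.3 FPKM in NC replicates 1 to 5. The highest maternal sums were thus in DDB1_KD replicates 2, 3 and 5, NLRP5 was not matched, and FIGLA was at 0 in 8 libraries. Mitochondrial genes took 12.2%, 16.8%, 16.4%, 12.2% and 24.4% of counts in DDB1_KD replicates 1 to 5 and 8.58% to 18.4% in NC.

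No member passed the comparison of DDB1_KD with NC. By edgeR's quasi-likelihood test, adjusted over 8476 genes by the Benjamini-Hochberg method, 0 of 25 members passed an adjusted p of 0.05, as did 0.0% of all genes tested. DESeq2 also passed 0 members, against 2 of all genes (0.0236%), and limma passed 0 members and 0 genes. At an unadjusted p under 0.05 edgeR picked 1 member, DSP, which was lower, where 1.13% of all genes were lower and 2.89% differed in either direction at that level. In none of the 25 did the 5 values of one group lie wholly above those of the other, and 0.413% of all genes showed such a separation.

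The fitted direction was lower in DDB1_KD for 18 members and higher for 7, that is 72.0% lower against 50.0% of all genes, with no test of the list. The median log2 fold change was -0.17 over the members and 0.00 over all genes. Single libraries moved this median: leaving out DDB1_KD replicate 2 gave -0.03, DDB1_KD replicate 3 -0.08, NC replicate 3 -0.09 and DDB1_KD replicate 4 -0.29. The number lower was 16 of 25 without either of the first 2 of these. Of the 25 members, 24 had a log2 fold change that moved by over 1.5 times or reversed when 1 library was left out. The exception was the DSP row, which holds transcripts of 2 neighbouring genes. The 24 include fold changes near 0, such as 0.01 for CLDN7, and no such count over all genes is given. Member fold changes ran from -0.66 for CLDN4 to 0.62 for F11R.

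**Figure D1:**
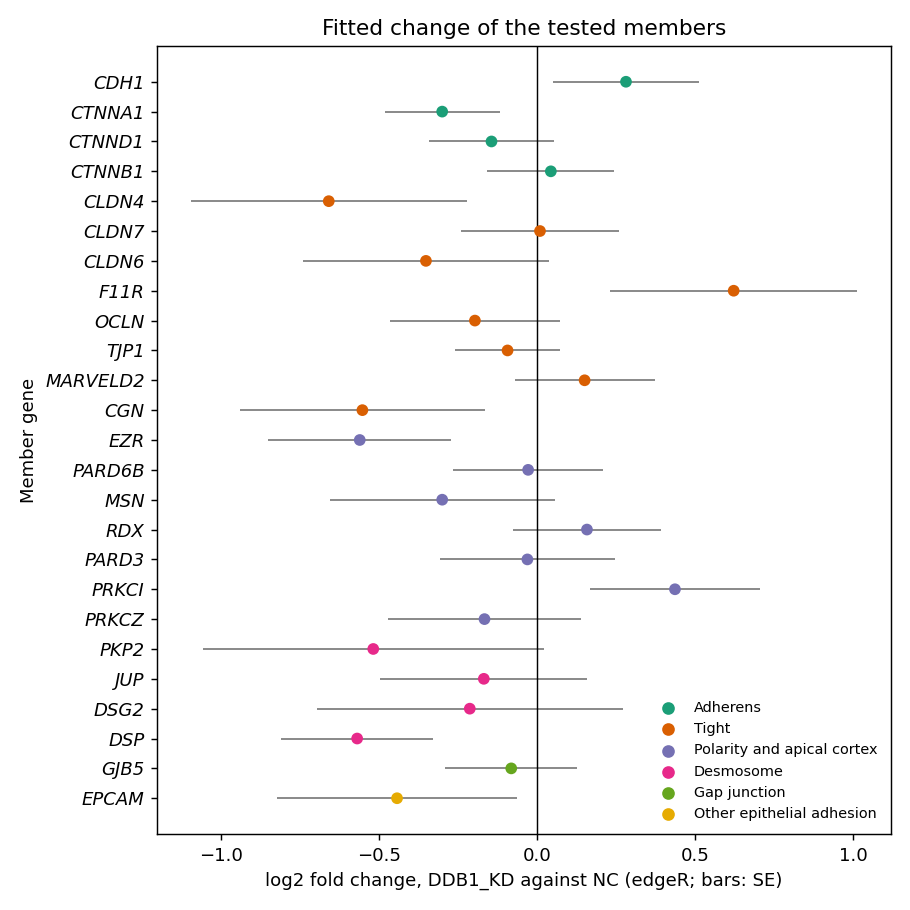
Log2 fold change of DDB1_KD against NC for each of the 25 tested members, with its standard error, grouped by junction class. All 4 tested desmosome members lie below 0, and F11R at 0.62 and PRKCI at 0.44 lie farthest above it.

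Among adherens junction genes, 2 members had a lower and 2 a higher fitted value, with a median log2 fold change of -0.05. CDH1, which encodes E-cadherin (chromosome 6, 18039318 to 18155990, minus strand, susScr11), was at 27.0, 39.7, 24.1, 28.6 and 29.9 FPKM in DDB1_KD replicates 1 to 5 and at 27.5, 28.3, 33.7, 17.4 and 16.0 FPKM in NC replicates 1 to 5. The highest library was a DDB1_KD one and the lowest were a pair of NC libraries, with the rest intermingled. Its means were 29.9 ± 5.92 and 24.6 ± 7.61 FPKM (SD, n = 5 each), a log2 fold change of 0.28 (SE 0.23) that was 0.15 without NC replicate 5.

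CTNNA1 encodes alpha-catenin, the link from the cadherin complex to actin (chromosome 2, 140682371 to 140873347, plus strand). It measured 19.8, 16.0, 14.5, 25.5 and 11.7 FPKM in DDB1_KD replicates 1 to 5 and 20.7, 21.6, 21.7, 20.9 and 22.0 FPKM in NC replicates 1 to 5. In FPKM the NC libraries were almost equal, 4 DDB1_KD libraries lay below all of them and replicate 4 lay above. This order depends on the scale. In log2 expression centred on the gene's mean over the libraries, DDB1_KD replicate 1 was at 0.107, above NC replicate 1 at 0.104. The SD was 0.572 FPKM in NC and 5.35 FPKM in DDB1_KD, and the log2 fold change was -0.30 (SE 0.18). CTNNB1, which encodes beta-catenin, the partner of the cadherin tail and also the effector of Wnt signalling, ranged only from 5.0 to 7.98 FPKM over the 10 libraries with a log2 fold change of 0.04 (SE 0.20). CTNND1, for p120-catenin, which stabilises cadherin at the membrane, ranged from 9.43 to 17.1 FPKM with a log2 fold change of -0.14 (SE 0.20).

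Of the 10 tight junction members, 8 were tested, with 5 lower and 3 higher and a median log2 fold change of -0.15. CLDN4, a claudin and the most abundant member of the whole set (chromosome 3, 11039706 to 11053923, plus strand), measured 218, 30.4, 126, 277 and 119 FPKM in DDB1_KD replicates 1 to 5 and 259, 154, 178, 279 and 347 FPKM in NC replicates 1 to 5. Replicates 2, 3 and 5 of DDB1_KD lay below every NC library, replicates 1 and 4 lay among them, and replicate 2 was far below the rest. Its means were 154 ± 95.5 and 244 ± 78.2 FPKM (SD, n = 5 each), a log2 fold change of -0.66 (SE 0.44) that was -0.39 without DDB1_KD replicate 2 and -0.90 without DDB1_KD replicate 4.

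F11R encodes the junctional adhesion molecule JAM-A (chromosome 4, 89424839 to 89447909, plus strand). It stood at 16.8, 54.1, 35.2, 10.7 and 33.1 FPKM in DDB1_KD replicates 1 to 5 and at 20.9, 11.7, 23.4, 22.4 and 20.7 FPKM in NC replicates 1 to 5. DDB1_KD replicates 2, 3 and 5 were above every NC library, the same libraries in which CLDN4 was below every NC library, and DDB1_KD replicate 4 was the lowest of all for F11R. The log2 fold change of 0.62 (SE 0.39) was the highest of the members, and it was 0.35 without DDB1_KD replicate 2. In replicates 2, 3 and 5 the maternal oocyte sums were also the highest of all libraries, and the embryo marker sums, mostly POU5F1, the lowest. The mitochondrial share was above that of DDB1_KD replicates 1 and 4. In replicates 2 and 3, at 16.8% and 16.4%, it was below the 18.4% of NC replicate 4. The part of these sums and shares in the CLDN4 and F11R values was not tested.

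CGN encodes cingulin, a cytoplasmic plaque protein that ties tight junctions to actomyosin (chromosome 4, 97704809 to 97730106, minus strand). It was low, at 1.10, 0.480, 1.37, 2.81 and 1.37 FPKM in DDB1_KD replicates 1 to 5 and 1.73, 1.62, 2.61, 2.37 and 2.07 FPKM in NC replicates 1 to 5. In FPKM, as for CTNNA1, 4 DDB1_KD libraries lay below all NC libraries and replicate 4 above all of them. In the centred log2 values, DDB1_KD replicate 4 was at 0.666, below NC replicate 3 at 0.670. For CGN the log2 fold change was -0.55 (SE 0.39), and -0.33 without DDB1_KD replicate 2 and -0.87 without DDB1_KD replicate 4.

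The other tested tight junction members differed by less between the groups. CLDN7 ranged from 31.9 to 95.4 FPKM (log2 fold change 0.01, SE 0.25) and CLDN6, a claudin of early embryonic epithelia, from 14.6 to 69.7 FPKM (log2 fold change -0.35, SE 0.39). CLDN6 was at -0.68 without DDB1_KD replicate 4 and -0.12 without NC replicate 5. OCLN, for occludin, a membrane protein of the seal, averaged 15.5 ± 6.07 FPKM after DDB1-siRNA against 17.9 ± 0.725 FPKM in controls (SD, n = 5 each). Its log2 fold change was -0.20 (SE 0.27), and -0.0027 without DDB1_KD replicate 2. Its NC libraries were again nearly level and its DDB1_KD libraries spread to both sides. MARVELD2, for tricellulin, which seals the points where 3 cells meet, was at 0.15 (SE 0.22), and TJP1, for the scaffold ZO-1, at -0.09 (SE 0.17). TJP3 and CLDN3 were below the filter: TJP3 reached at most 0.390 FPKM, and CLDN3 was at 0 in 9 libraries and at 0.256 FPKM in NC replicate 1.

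**Figure D2:**
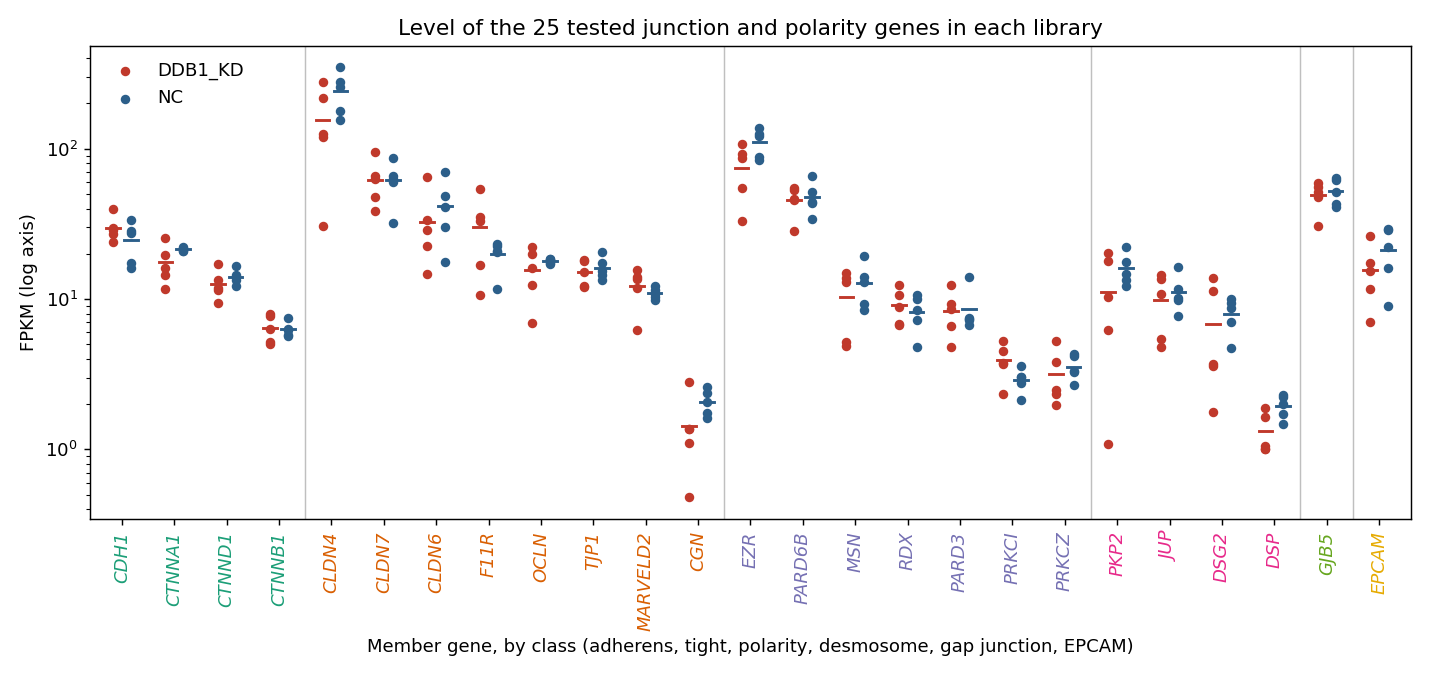
FPKM of the 25 tested members in each library on a log scale, DDB1_KD and NC side by side within each junction class, where points are libraries and short lines group means. CLDN4 is the most abundant member, and the points of the 2 groups overlap for all of them.

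Of the 9 polarity and apical cortex members, 7 were tested, 5 lower and 2 higher, with a median log2 fold change of -0.03. EZR encodes ezrin, which ties the apical membrane to cortical actin and is found in microvilli of the outer surface (chromosome 1, 8403355 to 8452747, plus strand). It measured 86.2, 33.1, 55.1, 108 and 91.9 FPKM in DDB1_KD replicates 1 to 5 and 138, 125, 87.6, 83.8 and 122 FPKM in NC replicates 1 to 5. DDB1_KD replicates 2 and 3 lay below all NC libraries and the other 3 among them. The means were 74.8 ± 30.2 and 111 ± 24.0 FPKM (SD, n = 5 each), a log2 fold change of -0.56 (SE 0.29, unadjusted p 0.0758 and adjusted p 0.977 by edgeR), and -0.37 without DDB1_KD replicate 2. Of its relatives, MSN, for moesin, was at -0.30 (SE 0.36) and RDX, for radixin, at 0.16 (SE 0.24). MSN ran from -0.50 to -0.11 and RDX from 0.03 to 0.25 as each library was left out.

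PRKCI and PRKCZ encode the atypical protein kinase C isoforms of the PAR complex. PRKCI (chromosome 13, 108912758 to 108995392, plus strand) measured 3.77, 4.52, 2.34, 3.68 and 5.22 FPKM in DDB1_KD replicates 1 to 5 and 2.12, 3.56, 2.75, 3.02 and 3.04 FPKM in NC replicates 1 to 5. In FPKM, 4 DDB1_KD libraries lay above every NC library, and replicate 3 lay near the bottom of the range. In the centred log2 values, DDB1_KD replicate 4 was at 0.01, below NC replicate 2 at 0.18. The log2 fold change was 0.44 (SE 0.27), and 0.28 without DDB1_KD replicate 5, against -0.17 (SE 0.31) for PRKCZ. PRKCI overlaps PHC3 on the other strand, and reads of the pair cannot be told apart where strand is not counted.

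The scaffold genes of the PAR complex had group means within 1 SD of each other. PARD6B averaged 45.6 ± 10.5 FPKM against 47.8 ± 11.9 FPKM in controls, and PARD3 averaged 8.36 ± 2.88 and 8.59 ± 3.08 FPKM (SD, n = 5 each), with log2 fold changes of -0.03 for both (SE 0.24 and 0.28). SCRIB and LLGL2, which act at the basolateral side against the PAR complex, were below the filter, at 0.0343 to 0.298 FPKM and 0.318 to 1.35 FPKM. The lowest value of any tested polarity member, 1.97 FPKM for PRKCZ, was above the highest of LLGL2.

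Desmosomal members were all fitted lower in DDB1_KD, 4 of 4 tested, none past the threshold. Their median log2 fold change was -0.37. PKP2 encodes plakophilin 2, which links the desmosomal cadherins to the plaque (chromosome 5, 41424795 to 41509779, plus strand). It measured 10.3, 1.08, 6.20, 20.2 and 17.8 FPKM in DDB1_KD replicates 1 to 5 and 22.3, 14.7, 13.3, 12.2 and 17.7 FPKM in NC replicates 1 to 5. DDB1_KD replicates 1, 2 and 3 were below every NC library, whereas replicates 4 and 5 lay in the upper part of the NC range. Its log2 fold change was -0.52 (SE 0.54), and -0.22 without DDB1_KD replicate 2 and -0.81 without DDB1_KD replicate 5.

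The cadherin DSG2 and the plaque protein JUP (plakoglobin) had the same order of DDB1_KD libraries in part. DSG2 measured 3.70, 1.76, 3.61, 11.3 and 13.7 FPKM in DDB1_KD replicates 1 to 5, with replicates 1, 2 and 3 below the NC range of 4.69 to 10.1 FPKM and replicates 4 and 5 above it. JUP measured 10.8, 5.39, 4.79, 14.5 and 13.5 FPKM in DDB1_KD replicates 1 to 5, with replicates 2 and 3 below the NC range of 7.68 to 16.3 FPKM. Their log2 fold changes were -0.21 (SE 0.48) and -0.17 (SE 0.33), and they turned to 0.04 without DDB1_KD replicate 2 and 0.01 without DDB1_KD replicate 3.

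Summed over the 4 desmosomal members, the level was 26.4, 9.24, 15.6, 47.9 and 46.1 FPKM in DDB1_KD replicates 1 to 5 and 44.5, 34.0, 33.5, 28.9 and 44.8 FPKM in NC replicates 1 to 5. PKP2, JUP and DSG2 together made up most of each sum, and the DSP row, at 1.01 to 2.30 FPKM, the rest. The FPKM of the DSP row is scaled to an implied length of 17017 bases. Its transcripts with counts have 13399 and 3608 bases. The DDB1_KD group held both the 3 lowest and the 2 highest sums. The maternal oocyte sum was high in DDB1_KD replicates 2 and 3, where the desmosomal sum was low, but also in replicate 5, where the desmosomal sum was high, and it was the lowest of all in replicate 1, where the desmosomal sum was also below every NC library. Its part in these values was not tested.

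**Figure D3:**
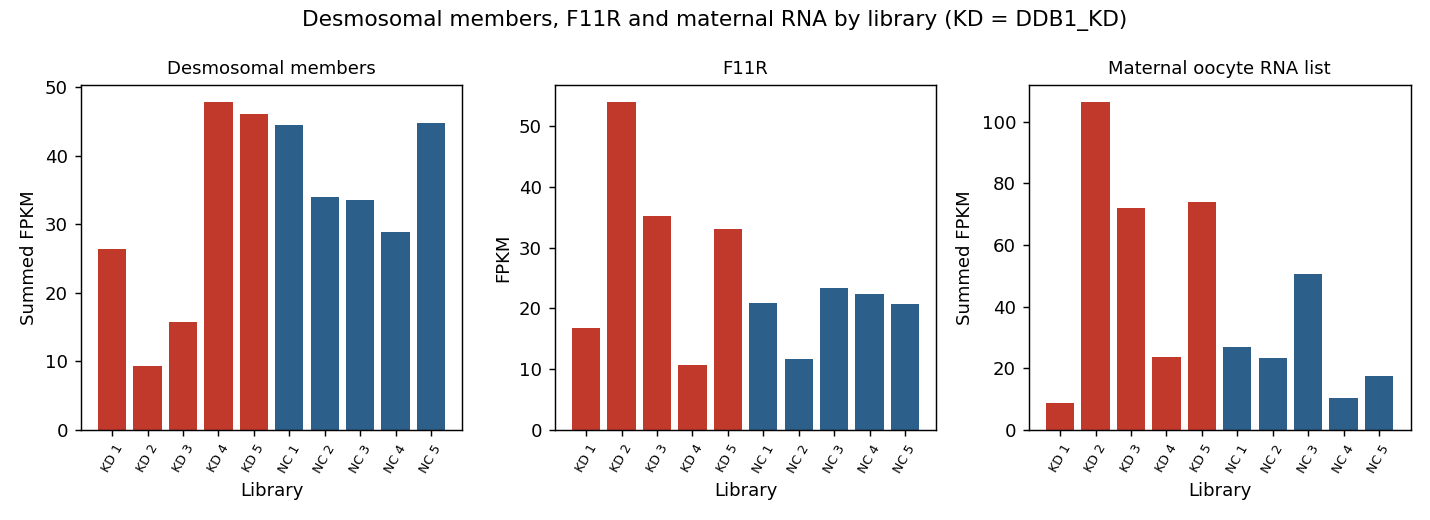
Summed FPKM of the 4 desmosomal members, FPKM of F11R and summed FPKM of the maternal oocyte transcripts in each library. The desmosomal sum of DDB1_KD runs from 9.24 to 47.9 and brackets the NC range of 28.9 to 44.8.

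The DSP entry, the member with the smallest p, holds transcripts of 2 neighbouring genes. DSP encodes desmoplakin, which binds keratin filaments to the plaque. The gene's row read 1.64, 1.01, 1.06, 1.88 and 1.01 FPKM in DDB1_KD replicates 1 to 5 and 2.30, 2.24, 1.48, 1.73 and 1.99 FPKM in NC replicates 1 to 5. Replicates 2, 3 and 5 of DDB1_KD were below all NC libraries and the other 2 were among them. The log2 fold change was -0.57 (SE 0.24) with an unadjusted p of 0.0354 and an adjusted p of 0.977 by edgeR.

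Transcript ENSSSCT00000001118 of that row has 24 exons on chromosome 7 from 4862565 to 4919236 (plus strand) and lies within RefSeq's DSP. ENSSSCT00000001119 has 9 exons from 4919298 to 4937363, begins after 61 further bases, and overlaps only RefSeq's SNRNP48, which encodes a protein of the minor spliceosome. The transcript at the SNRNP48 position supplied 52.2% of the row's estimated counts. The desmoplakin transcript itself measured 1.12, 0.270, 0.336, 1.22 and 0.645 FPKM in DDB1_KD replicates 1 to 5 and 1.58, 1.46, 0.736, 1.16 and 1.34 FPKM in NC replicates 1 to 5. Its lowest libraries were DDB1_KD replicates 2, 3 and 5, and replicates 1 and 4 lay within the NC range. It fell below the filter, and in the fit with no filter its log2 fold change was -0.85 (SE 0.48, unadjusted p 0.102 and adjusted p 0.506 by edgeR). The SNRNP48-position transcript was at -0.35 (SE 0.24), so the smallest p among the members belongs to a sum over both.

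DSC2, the desmosomal cadherin desmocollin 2, was the 1 listed symbol with no row of that name. The row at its position (ENSSSCG00000024800, chromosome 6, 114918815 to 115021364, minus strand) carries the name DSC3 and holds transcripts of both desmocollin genes. The 3 transcripts that lie within RefSeq's DSC2 alone summed to 7.35, 5.11, 6.33, 18.8 and 52.0 FPKM in DDB1_KD replicates 1 to 5 and to 29.9, 38.2, 7.46, 22.6 and 17.4 FPKM in NC replicates 1 to 5. As with PKP2 and DSG2, DDB1_KD replicates 1, 2 and 3 were below all NC libraries and replicate 5 was high. For the whole row the fold change was -0.33 on the log2 scale (SE 0.62), and -1.27 without DDB1_KD replicate 5.

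GJB5, a connexin of gap junction channels (chromosome 6, 91002163 to 91002984, plus strand), measured 55.7, 51.3, 30.7, 59.4 and 47.9 FPKM in DDB1_KD replicates 1 to 5 and 61.7, 42.8, 51.9, 40.7 and 63.5 FPKM in NC replicates 1 to 5. DDB1_KD replicate 3 was the lowest library and the others were intermingled, with a log2 fold change of -0.08 (SE 0.21). GJA1, which encodes connexin 43, was below the filter at 0 to 1.20 FPKM.

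EPCAM, an epithelial adhesion protein (chromosome 3, 93165219 to 93185715, minus strand), measured 26.4, 11.7, 15.4, 17.5 and 7.02 FPKM in DDB1_KD replicates 1 to 5 and 28.6, 29.4, 8.95, 22.3 and 16.1 FPKM in NC replicates 1 to 5. High and low libraries occurred in both groups, and the log2 fold change was -0.44 (SE 0.38), with -0.73 without DDB1_KD replicate 1 and -0.26 without NC replicate 2.

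Members differed widely in how much they varied between libraries of a group. The median within-group SD of log2 expression was 0.43 over the members and 0.51 over all genes tested. PKP2, CLDN4 and DSG2 stood at the 92.1, 85.4 and 85.2 percentiles of that SD among all genes. At the other end, TJP1, CTNNA1, CTNNB1, CTNND1 and GJB5 stood at the 2.55, 7.76, 8.60, 11.2 and 12.0 percentiles. The alpha-, beta- and p120-catenin genes and the ZO-1 scaffold were thus among the steadier genes of these libraries. A desmosomal plaque gene and a claudin were among the more variable. JUP, for plakoglobin, stood at the 59.3 percentile, so not every catenin was steady. The SD was larger in DDB1_KD than in NC for 20 of 25 members, 80.0%, and for 69.2% of all genes tested. The biological coefficient of variation common to all genes was 47.6% in the edgeR fit.

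DDB1_KD replicate 2 held the lowest value of the 10 libraries for 10 of the 25 tested members, namely CTNNB1, OCLN, CLDN4, CGN, PRKCZ, EZR, MSN, DSP, DSG2 and PKP2, and the highest value for CDH1, F11R and RDX. Centred on each member's mean over the libraries, its median member stood at -0.36 (log2), against -0.03 over all genes. DDB1_KD replicate 3 was next at -0.24. In deposited FPKM, the highest values were most often in DDB1_KD replicate 4 and NC replicate 5, with 7 members each. That count depends on the scale. In the centred log2 values, CTNNB1, OCLN and MARVELD2 were highest in DDB1_KD replicate 3 and CGN in NC replicate 3, and not in DDB1_KD replicate 4. GJB5 was highest there in NC replicate 1, and not in NC replicate 5. These counts of lowest and highest values were not made over all genes. DDB1_KD replicate 2 also had the highest maternal oocyte sum, 107 FPKM, and the second lowest embryo marker sum, 50.5 FPKM, although NANOG was highest there. The part of these sums in the member values was not tested.

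**Figure D4:**
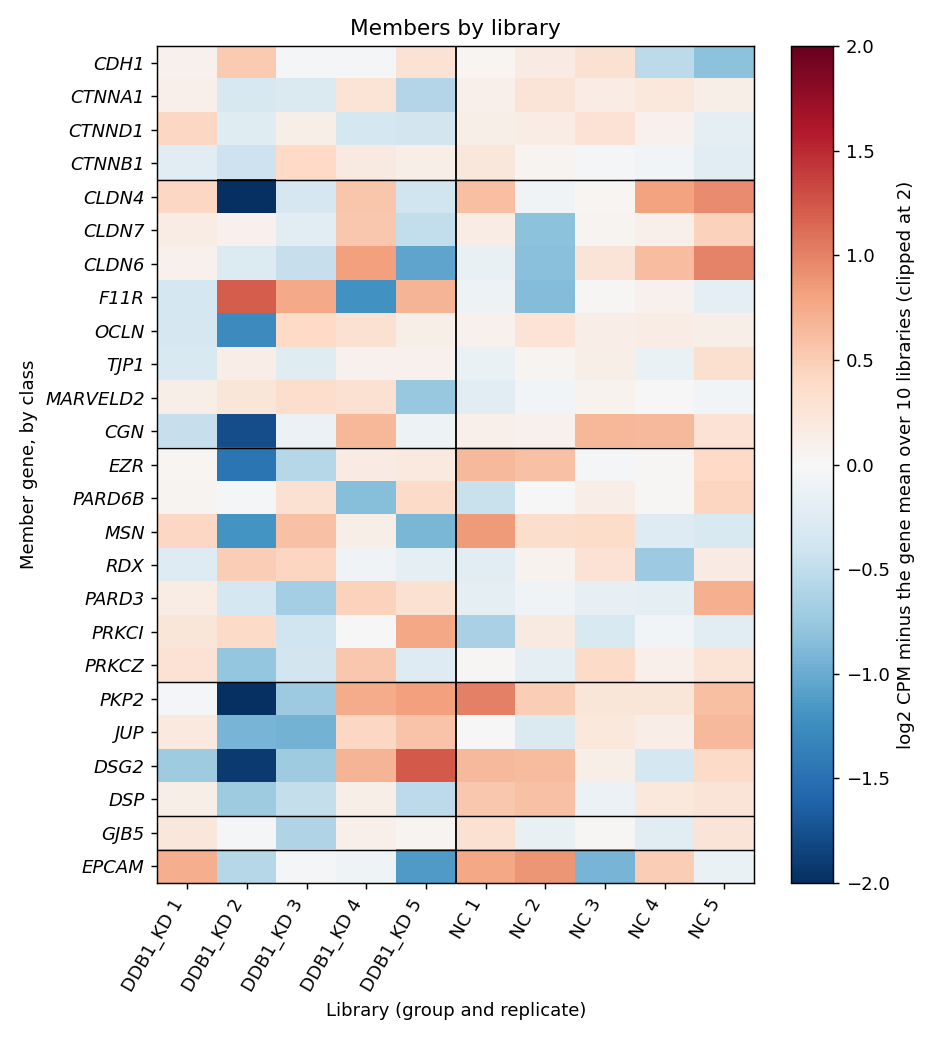
Log2 expression of each tested member in each library, centred on the member's mean over the 10 libraries. DDB1_KD replicate 2 has the lowest value for 10 members and the highest for CDH1, F11R and RDX.

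Isoforms of the members were compared in the same way. The 30 members have 81 listed isoforms, of which 39 reached the filter, and 0 of the 39 passed edgeR's quasi-likelihood test, against 0.00889% of 11250 isoforms (1 isoform). DESeq2 and limma also passed 0 member isoforms, against 68 and 1 of all. At an unadjusted p under 0.05 edgeR picked 2 member isoforms, where 3.36% of all isoforms were picked, and no member isoform separated the groups completely, as 0.373% of all isoforms did. For 10 members at least 2 isoforms reached the filter, and isoform shares are given below as a percentage of the gene's summed isoform FPKM. These shares are estimates. The part in them of how reads were assigned between overlapping isoforms was not tested.

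OCLN had the member isoform with the smallest p. ENSSSCT00000060865 (chromosome 16, 47600415 to 47652436, plus strand, 9 exons) had estimated shares of 26.9%, 99.2%, 39.9%, 6.79% and 99.9% in DDB1_KD replicates 1 to 5. Its estimated shares were 4.30%, 3.59%, 16.7%, 7.49% and 7.63% in NC replicates 1 to 5. In FPKM it stood at 3.86, 8.12, 9.33, 1.76 and 19.0 in DDB1_KD and at 0.870, 0.778, 3.56, 1.49 and 1.66 in NC. In DDB1_KD, 4 of 5 libraries lay above every NC library and replicate 4 lay within the NC range. The log2 fold change was 2.41 (SE 0.69) with an unadjusted p of 0.00575, an adjusted p of 1.0 by edgeR and 0.0506 by DESeq2. Its alternative, ENSSSCT00000057617, also has 9 exons and was at 0 in DDB1_KD replicates 2 and 5, while it made up 82.9% to 96.4% in NC. The 2 are 4397 and 4413 bases long, and the gene total of OCLN stood at a log2 fold change of -0.20.

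MARVELD2 is the nearest member neighbour of OCLN, 37.2 kb away on chromosome 16. Its isoform ENSSSCT00000028212 was at 1.56, 0.667, 1.57, 1.56 and 0 FPKM in DDB1_KD replicates 1 to 5 and at 4.70, 10.8, 2.46, 5.55 and 0.846 FPKM in NC replicates 1 to 5. In NC, 4 libraries lay above every DDB1_KD library and replicate 5 lay among them. Its log2 fold change was -2.24 (SE 1.20) with an adjusted p of 1.0 by edgeR. The isoform ENSSSCT00000030101 had an estimated share of 71.5% to 100% in DDB1_KD and 0% to 80.0% in NC.

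The CTNND1 isoform ENSSSCT00000061522 was at 10.8 FPKM in NC replicate 1 and 3.95 FPKM in NC replicate 5, and at most 0.876 FPKM in the other 8 libraries. The log2 fold change of -4.64 (SE 1.96) thus rested on 2 NC libraries, and it was -3.25 without NC replicate 1. In those libraries the usual isoform ENSSSCT00000057231 made up 22.8% and 69.7%, against 67.7% to 94.9% elsewhere.

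For other members the estimated isoform shares differed from library to library without following the groups. For MSN, ENSSSCT00000013522 was at 0 in 5 libraries and made up 51.7% to 61.9% in DDB1_KD replicates 2, 4 and 5 and NC replicate 4. For RDX, ENSSSCT00000058502 made up 62.1% to 71.7% in 7 libraries and 0% to 11.1% in DDB1_KD replicate 4 and NC replicates 1 and 4. For TJP1, ENSSSCT00000063278 made up 67.2% in NC replicate 2 and 6.14% to 38.1% elsewhere. The DSG2 isoform ENSSSCT00000051217 was at 0 in DDB1_KD replicates 2 and 4 and reached 61.6% in NC replicate 2. For CDH1, ENSSSCT00000061769 was the leading isoform in all 10 libraries, at 53.2% to 92.5%. PARD6B was read almost wholly from ENSSSCT00000024378, at 88.9% to 100%. CLDN7 was read mainly from ENSSSCT00000028238, at 55.7% to 100%, and this transcript also overlaps ELP5 on the other strand.

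**Figure D5:**
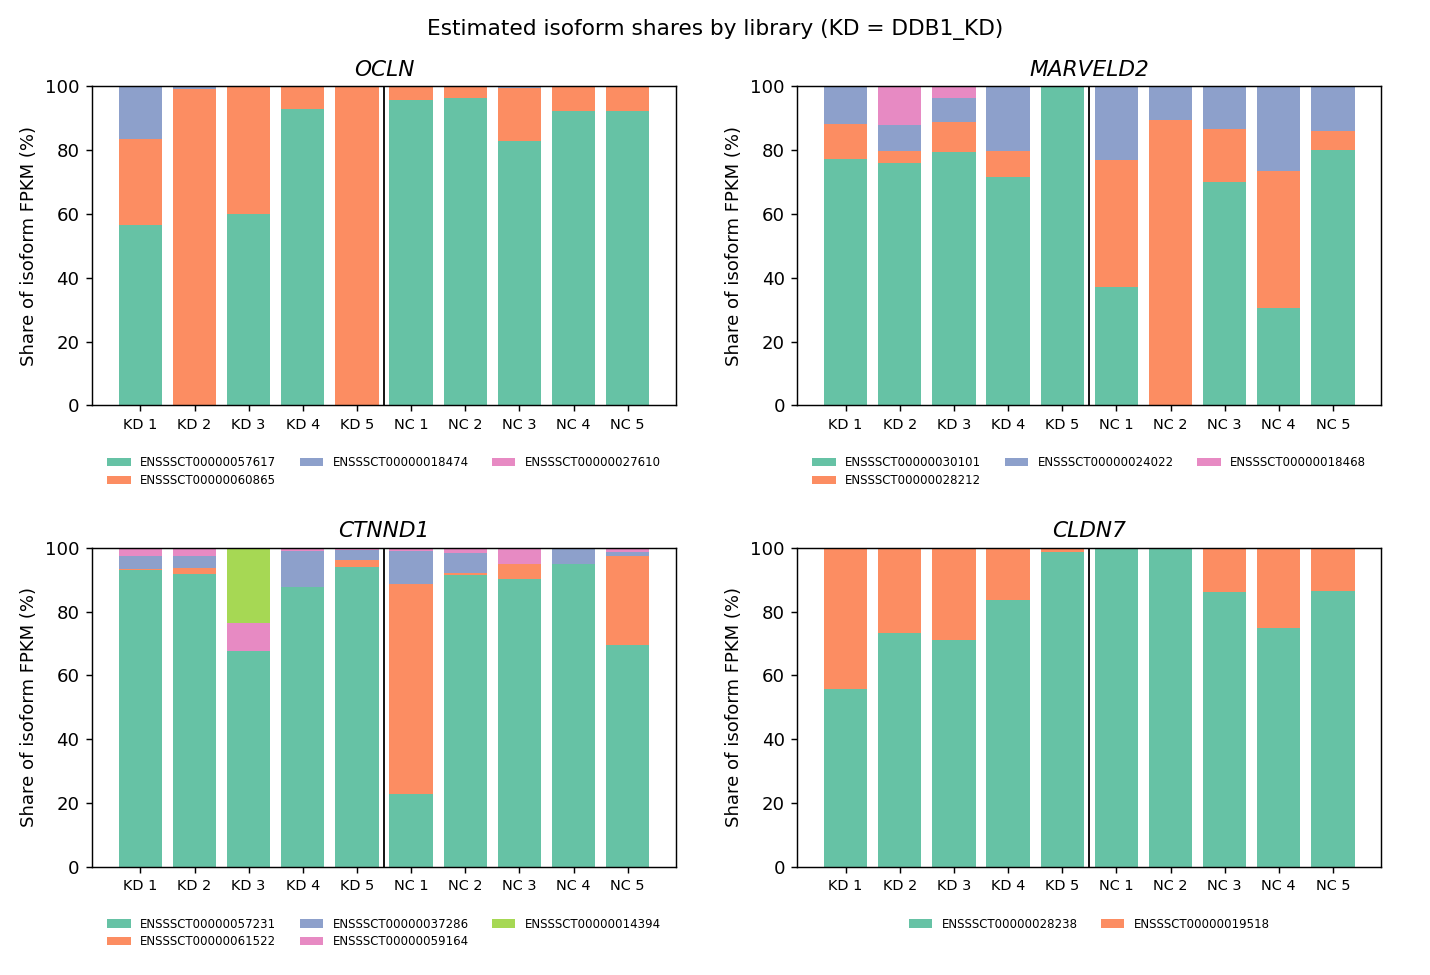
Share of each isoform in the summed isoform FPKM of its gene, in percent, in each of the 10 libraries, for OCLN, MARVELD2, CTNND1 and CLDN7. The OCLN isoform ENSSSCT00000060865 ranges from 6.79% to 99.9% in DDB1_KD and from 3.59% to 16.7% in NC.

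Several members have a paralogue beside them that was hardly read. CLDN3 lies 19.5 kb from CLDN4 and was at 0 in 9 libraries. CLDN9 lies 1.2 kb from CLDN6 and averaged 0.301 FPKM, against 37.0 FPKM for CLDN6. CDH3, for P-cadherin, lies 35.7 kb from CDH1 and averaged 0.0731 FPKM. DSG3 lies 15.2 kb from DSG2 and averaged 0.00171 FPKM.

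A wider list of 84 junction, polarity, actomyosin and keratin genes that are not members was read beside them, with 78 found and 38 tested. Of the 38, 24 were lower in DDB1_KD (63.2%, against 50.0% of all genes) and 14 higher. Over the 38 the median was -0.08 on the log2 scale, and 0 passed edgeR's quasi-likelihood test. PERP, a desmosome-associated membrane protein, was the 1 gene of the 38 at an unadjusted p under 0.05, a level that 2.89% of all genes reached. It measured 15.2, 11.1, 11.3, 13.7 and 9.36 FPKM in DDB1_KD replicates 1 to 5 and 19.7, 15.7, 17.8, 12.4 and 25.5 FPKM in NC replicates 1 to 5. All DDB1_KD libraries but replicates 1 and 4 lay below every NC library, and the log2 fold change was -0.57 (SE 0.22) with an adjusted p of 0.977 by edgeR.

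KRT18, which encodes a simple-epithelium keratin that desmosomes anchor, varied most among the wider genes given here. It measured 108, 3.71, 12.6, 332 and 112 FPKM in DDB1_KD replicates 1 to 5 and 453, 231, 170, 119 and 143 FPKM in NC replicates 1 to 5. DDB1_KD replicates 2 and 3 were again the lowest and DDB1_KD replicate 4 was high, and the log2 fold change was -1.02 (SE 0.84), or -0.60 without NC replicate 1 and -1.83 without DDB1_KD replicate 4. VCL, for vinculin at the actin side of adherens junctions, was at -0.67 (SE 0.49), and -0.31 without NC replicate 1. MAGI3, a scaffold of tight junctions, was at 1.10 (SE 0.74) with 1.81 to 38.4 FPKM in DDB1_KD and 2.18 to 16.7 FPKM in NC, and at 0.50 without DDB1_KD replicate 5.

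On the log2 scale the abundant claudin CLDN8 differed by 0.27 (SE 0.36) and the myosin light chain MYL12A by 0.01 (SE 0.30). CLDN8 turned to -0.15 without DDB1_KD replicate 5, and MYL12A changed sign under several settings. GJB6, a connexin read at 0.284 to 3.79 FPKM, was at 0.79 (SE 0.60). CTNNBL1, listed by its beta-catenin-like name although it encodes a nuclear protein associated with splicing, was at 0.24 (SE 0.29).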

How the data were processed

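RNA-seq was read from 5 DDB1_KD and 5 NC libraries, grouped by sample title, and DDB1_KD columns are headed DBB1 in the deposited files. Per the file headers, the authors deposited FPKM and estimated counts per gene and per isoform. The submitters' processing notes name fastp, HISAT2, StringTie, edgeR, HOMER and ChIPseeker and the build susScr11, with no versions or roles. In the deposited tables, isoform counts equalled FPKM times length times 1 constant per library for 100% of values above 0 (within 1.5 counts plus 0.5%), and gene counts were sums of isoform counts, so the counts may be estimates from coverage with another sampling error than read tallies. A deposited FPKM of 0.0001 stands for a count of 0 and was read as 0.

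Features averaging 1 FPKM or more over all libraries were tested with edgeR 4.0.16 (glmQLFit, glmQLFTest, TMM scaling, group as the only term) in R 4.3.3 on the deposited estimated counts, with Benjamini-Hochberg adjustment over the whole table and a threshold of 0.05. Log2 fold changes are DDB1_KD against NC, and levels are the deposited FPKM, given per library or as mean ± SD. DESeq2 1.42.0, limma 3.58.1 on log2(FPKM + 1) or log2(FPKM + 0.1), other scalings and filters, the replicate block and each library left out in turn were alternatives. Python 3.11.15, pandas 2.3.3 and matplotlib 3.10.9 were used for tables and figures.

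The members and lists were chosen with earlier results of these data known. Values per library are given for members with separated groups, the 8 members with the smallest p, the most abundant member of each class, the 3 isoforms with the smallest p, and, of the wider list, the 4 genes with the smallest p and the most abundant of each class. DSG2, JUP and the desmocollin row fell outside this rule and were given after their values were seen. CLDN7 was matched through Ensembl names and CGN through NCBI RefSeq names (Sscrofa11.1). A gene on the opposite strand overlaps 10 of the members, and the sources used here do not say whether reads were counted by strand. CLDN5, MARK3, MYH10, MYL12B, KRT19 and PALS1 of the wider list were not matched by name. Some genes that the rule for named genes picks are not reported here.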

Additional observations from a re-analysis of the deposited data

Results flagged for a closer look

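In 9 of 141 groups of 5 libraries examined, 1 library lay far from the other 4 by Dixon's criterion, and chance flags about 1 in 20 groups. Among genes, NC replicate 1 was high for TJP3 (0.390 FPKM) and for CLDN3 (0.256 FPKM), NC replicate 2 was low for F11R (11.7 FPKM), and NC replicate 5 was high for PARD3 (14.1 FPKM). Among isoforms, NC replicate 2 was high for TJP1 ENSSSCT00000063278 (11.6 FPKM), DDB1_KD replicate 1 for CTNND1 ENSSSCT00000057231 (18.6 FPKM), DDB1_KD replicate 5 for DSG2 ENSSSCT00000051217 (7.87 FPKM), DDB1_KD replicate 4 for RDX ENSSSCT00000037354 (8.39 FPKM), and NC replicate 4 for MSN ENSSSCT00000013522 (6.13 FPKM).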

How the results depend on the processing

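The number of genes passing was 0 under edgeR and under every alternative listed in the processing notes except DESeq2, which gave 2. The number of isoforms passing was 1, and it was 68 with DESeq2, 0 with no filter, 0 with the replicate block and 0 to 2 when 1 library was left out. No member or member isoform passed under any alternative, and the smallest adjusted p was 0.469 for a member and 0.0506 for an isoform. The members kept their direction in 434 of 446 values, and the 7 members that reversed did so only when 1 library was left out: CTNNB1 (-0.048 to 0.14), CLDN7 (-0.14 to 0.13), PARD3 (-0.16 to 0.18), PARD6B (-0.12 to 0.13), DSG2 (-0.71 to 0.037), JUP (-0.35 to 0.0073) and GJB5 (-0.14 to 0.045). Of the wider list, CLDN8 lay between -0.15 and 0.47 with 1 library omitted, and MYL12A, near 0 throughout, between -0.14 and 0.20. MYL12A was also at -0.038 and -0.037 with limma at pseudocounts of 0.1 and 1, -0.0061 with no filter, -0.022 with the replicate block and -0.00012 with total-count scaling. The wider list had 48 of 74 lower with no filter and 14 of 21 with the stricter filter (a mean FPKM of at least 5), because more or fewer genes were tested. The other causes were not tested. With the replicate number as a block, 18 members were lower with a median of -0.23. The numbers were not taken as pairs, since same-numbered libraries correlated at -0.14 to 0.35, and the block changed no other call. Low members such as CGN rest on 112 to 662 counts per library.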

Other observations

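For CTNNB1 the deposited gene FPKM is scaled to a longer stretch than the leading transcript. Its implied length was 7632 bases for the gene against 3492 bases for ENSSSCT00000012342, and it averaged 6.37 FPKM as a gene and 11.5 FPKM as that transcript.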
